A study of Mus musculus with 6 samples.

Results

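Described here are 7 genes in the nuclear RNA of mouse neural precursor cells. Fmr1, Fxr1 and Fxr2 encode the FMRP family of RNA-binding proteins, and Cyfip1, Cyfip2, Nufip1 and Nufip2 encode proteins first known as partners of FMRP. The genes were taken by symbol, with earlier results of these data known. All 7 had a row among the 23337 gene rows of every file and passed the filter on low counts. The cells came from the dissociated dorsal hem of the forebrain at embryonic day 13.5, were kept as dividing cultures with EGF and basic FGF, and were taken at passage 6 to 7, when their nuclei were isolated and the nuclear RNA sequenced. There were 6 libraries, each from its own line. Lines 3, 13 and 16 carried the genotype label Fmr1 KO, and lines 3, 8 and 19 carried Fmr1 WT. Per the labels, density and passage were matched, and nuclear preparations were kept when U1 RNA was high and beta-actin RNA low. They do not give the kind of Fmr1 allele, the strain or the sex of the embryos, nor which lines shared a litter.

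FMRP, the protein missing in fragile X syndrome, binds messenger RNAs, travels with them and holds back the translation of many. FXR1P and FXR2P are its autosomal relatives, built from the same types of RNA-binding domain and able to pair with it. CYFIP1 and CYFIP2 are close paralogs that sit in the WAVE regulatory complex, where they take up the signal of active RAC to start ARP2/3-driven actin branching, and CYFIP1 also binds the cap-binding protein eIF4E. NUFIP1 is a mainly nuclear protein known for its part in assembling box C/D small nucleolar ribonucleoproteins, and NUFIP2 is a cytoplasmic RNA-binding protein found with ribosomes and stress granules. NUFIP1 and NUFIP2 share a name and FMRP binding but are not close paralogs.

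Promoter windows are shown for the gene named in the genotype and for the 2 members that passed the test between genotypes. Which start the measured transcripts used was not tested. Each line holds the 250 bases before a RefSeq start site in GRCm38.p6, on the strand of the gene: Fmr1 at chrX:68678291-68678540 (plus strand), Cyfip2 at chr11:46312359-46312608 (minus strand) and Nufip2 at chr11:77685889-77686138 (plus strand). Capitals mark CACGTG (the E-box) and GGGCGG (the GC box), searched on both strands. In studies of human FMR1 such letters are recognised by USF proteins and by SP1.
Fmr1: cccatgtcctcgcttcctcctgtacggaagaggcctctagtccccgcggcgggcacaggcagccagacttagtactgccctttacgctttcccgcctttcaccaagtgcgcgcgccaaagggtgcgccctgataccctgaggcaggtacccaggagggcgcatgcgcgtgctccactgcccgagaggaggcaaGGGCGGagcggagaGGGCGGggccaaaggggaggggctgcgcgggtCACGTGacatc
Cyfip2: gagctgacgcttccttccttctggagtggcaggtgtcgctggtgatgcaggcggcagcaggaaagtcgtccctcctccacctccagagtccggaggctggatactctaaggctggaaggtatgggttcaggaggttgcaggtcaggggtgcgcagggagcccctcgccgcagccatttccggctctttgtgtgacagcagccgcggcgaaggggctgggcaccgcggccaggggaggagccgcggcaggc
Nufip2: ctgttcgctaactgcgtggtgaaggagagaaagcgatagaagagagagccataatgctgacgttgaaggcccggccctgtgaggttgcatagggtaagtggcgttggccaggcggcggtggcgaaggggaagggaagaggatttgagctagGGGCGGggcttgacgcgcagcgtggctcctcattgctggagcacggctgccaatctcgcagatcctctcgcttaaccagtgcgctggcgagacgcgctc
The Fmr1 window held GGGCGG at 57 and 43 bases before the start site and CACGTG at 11 bases, and none of these overlapped another. The Nufip2 window held 1 GGGCGG, 99 bases before the start, and the Cyfip2 window held neither motif. The Cyfip2 window lies inside the gene as GENCODE places it (46193850 to 46312859), so it is not the sequence before that start. Fmr1 had 2 windows, and the first is shown. The bases just after the Nufip2 window were not found in a GENCODE transcript of the members. Over 32851 promoter windows of the same length, 6.02% held CACGTG and 32.7% held GGGCGG. RefSeq windows were matched for 6 of the 7 genes. These matches describe letters only, since nothing bound to these windows was measured.

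Libraries held 18702738 to 26789522 counts. A single count equalled 0.0373 to 0.0535 CPM, the usual unit of counts relative to the library total, and the 7 genes together drew 21919 to 33453 counts in each. Levels below are in CPM after edgeR's TMM scaling. All pairs of same-genotype lines differed beyond sampling noise (chi-square per degree of freedom 10.8 to 91.5). WT line 19 and the library labelled KO line 3 stood apart from the others of their genotype. The ribosomal RNA precursor Rn45s was at 18739 CPM in WT line 19, against 2065 and 1741 CPM in WT lines 3 and 8. It was at 1078, 1893 and 2568 CPM in KO lines 3, 13 and 16. Xist reached 20508 CPM in KO line 3, against 15465 and 18433 CPM in WT lines 3 and 8, and it stayed at 3.34 and 1.67 CPM in KO lines 13 and 16, against 81.8 CPM in WT line 19. The Y-linked genes summed to 0.695, 423.5 and 358 CPM in KO lines 3, 13 and 16, against 33.1, 10.1 and 719.6 CPM in WT lines 3, 8 and 19. Lines are called Xist-high or Xist-low by a level of 1000 CPM, but the WT lines held some signal of the other kind. Precursor markers (10 genes, led by Nes and Vim) summed to between 5950 and 7350 CPM in the libraries labelled KO, against 7994 to 8991 CPM in WT (2 of 10 called lower, Vim and Slc1a3, where 20.4% of all tested genes were). The 8 microglial markers summed to at most 1.34 CPM. The 8 vascular and mesenchymal markers summed to 9.85 to 26.3 CPM in the libraries labelled KO, against 9.55 to 12.6 CPM in WT. Of these, 3 of 5 tested were called higher (21.8% of all tested genes were): Kdr averaged 6.65 CPM in the libraries labelled KO, against 4.12 CPM in WT, Col1a1 3.56 against 1.35 CPM, and Pdgfrb 0.633 against 0.133 CPM. Pecam1 and Col3a1 were tested and not called, with log2 fold changes of -0.05 and -0.12. Col3a1 was at 12.9, 0.254 and 1.63 CPM in KO lines 3, 13 and 16, against 3.95, 5.78 and 5.96 CPM in WT lines 3, 8 and 19. The part of such cells in the results was not tested. The series describes independent lines but not whether each came from its own embryo, so the p-values measure the spread between lines. In bulk RNA, a change in the make-up of the culture and a change of RNA per cell cannot be told apart.

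The order of the genes was first read per kilobase of exon, since longer transcripts collect more counts. On this scale Nufip2 led, at 49.2 ± 24.8 CPM per kilobase in the libraries labelled KO and 86.5 ± 7.03 in WT (SD, n = 3 each). Fxr2 followed at 46.7 ± 4.44 and 44.1 ± 2.03 CPM per kilobase. In the libraries labelled KO the Nufip2 range of 30.9 to 77.3 spanned that of Fxr2, 41.98 to 50.8, so these neighbours in the order did not differ beyond their spread there, while in WT they did. Fmr1 (26.5 ± 13.1 in the libraries labelled KO and 28.5 ± 3.13 in WT) and Fxr1 (24.02 ± 2.69 and 26.4 ± 1.38) overlapped in both genotypes. Below them stood Cyfip1 (14.99 ± 1.71 and 13.5 ± 1.07 CPM per kilobase), Nufip1 (8.09 ± 0.367 and 7.16 ± 0.202) and Cyfip2 (5.59 ± 0.636 and 2.93 ± 0.237), with no overlap of neighbours within a genotype. The length used is the union of GENCODE exons, and rarely used exons lower the value: with the longest transcript as length, Fmr1, Fxr1 and Fxr2 came to 55.9, 54.8 and 58.0 CPM per kilobase over the 6 libraries, close to one another.

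**Figure D1:**
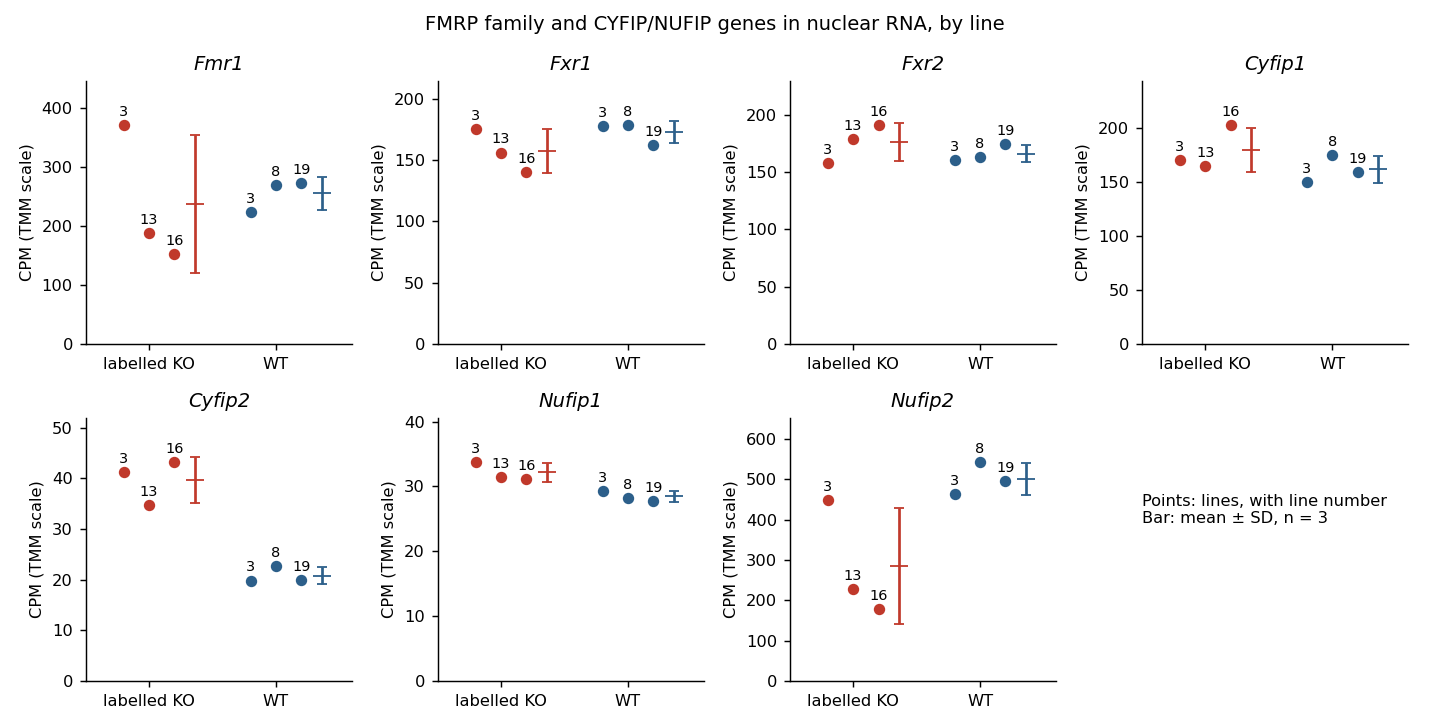
Levels of the 7 genes in each line, in TMM-scaled CPM from 0; points carry the line number and bars give the mean ± SD of 3 lines. Cyfip2 and Nufip1 lie higher and Nufip2 lower in every library labelled KO than in any WT library, while Fmr1 in the library labelled KO line 3 (371 CPM) lies above all WT lines and in KO lines 13 and 16 below them.

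Fmr1 RNA was present in all 6 nuclear libraries, and its level split the lines labelled KO. Fmr1 (ENSMUSG00000000838.17) lies on the plus strand of chromosome X, positions 68678541 to 68717963 in GRCm38. It measured 371, 188 and 153 CPM in the libraries labelled KO lines 3, 13 and 16, against 223, 269.8 and 274 CPM in WT lines 3, 8 and 19. The library labelled KO line 3 was the highest of all 6 and KO lines 13 and 16 were the lowest, so the groups overlapped. Relative to the WT mean the log2 differences were 0.54 for KO line 3, -0.44 for KO line 13 and -0.74 for KO line 16. Over all lines the log2 fold change was -0.10 (SE 0.29, 95% interval -0.75 to 0.54), and the edgeR quasi-likelihood test did not call it (adjusted p = 0.795, Benjamini-Hochberg). Without the library labelled KO line 3 the log2 fold change was -0.58 (edgeR adjusted p = 0.00152), where 53.7% of the tested genes were called.

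The kind of Fmr1 allele is not given, and every library with the KO label held Fmr1 RNA. These libraries are therefore called libraries labelled KO throughout. Within the Xist-high lines Fmr1 was at 371 CPM in the library labelled KO line 3, against 223 and 269.8 CPM in WT lines 3 and 8. Within the Xist-low lines it was at 188 and 153 CPM in KO lines 13 and 16, against 274 CPM in WT line 19. The sign of the difference was thus opposite in the Xist-high and Xist-low lines, and Xist state and KO line 3 cannot be told apart among the lines labelled KO. With Xist state as a covariate the log2 fold change was -0.04 (edgeR adjusted p = 0.901). Whether the Fmr1 RNA of the libraries labelled KO is whole cannot be read from 1 count per gene.

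The autosomal relatives Fxr1 and Fxr2 did not pass the test. Fxr1 (ENSMUSG00000027680.15, chromosome 3, 34019943 to 34070322) was at 176, 156 and 140.5 CPM in the libraries labelled KO lines 3, 13 and 16, against 177, 179 and 162 CPM in WT lines 3, 8 and 19. The libraries labelled KO lines 13 and 16 lay below every WT line, and KO line 3 lay within the WT range. Its log2 fold change was -0.13 (SE 0.11, 95% interval -0.39 to 0.12, edgeR adjusted p = 0.364). Dnajc19, on the other strand, shares 2.72% of the Fxr1 exon bases. Fxr2 (ENSMUSG00000018765.5, chromosome 11, 69632990 to 69653297) ran the other way among the same lines. It was at 158, 179 and 191 CPM in the libraries labelled KO lines 3, 13 and 16, against 161, 163 and 175 CPM in WT lines 3, 8 and 19. KO line 3 was thus the lowest of the 6 libraries for Fxr2 and KO lines 13 and 16 the highest. Its log2 fold change was 0.08 (SE 0.11, 95% interval -0.16 to 0.33, edgeR adjusted p = 0.555).

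Cyfip2 rose in the libraries labelled KO, and its close paralog Cyfip1 did not pass the test. Cyfip2 (ENSMUSG00000020340.16, minus strand of chromosome 11, 46193850 to 46312859) was at 41.2, 34.6 and 43.3 CPM in the libraries labelled KO lines 3, 13 and 16, against 19.8, 22.7 and 19.8 CPM in WT lines 3, 8 and 19. Every library labelled KO was above every WT library. The log2 fold change was 0.93 (SE 0.13, edgeR adjusted p = 5.93e-04), a 1.91-fold difference, in 3 of 3 lines. Cyfip1 (ENSMUSG00000030447.15, chromosome 7, 55841745 to 55932602) was at 169.7, 165 and 202 CPM in the libraries labelled KO lines 3, 13 and 16, against 149.97, 175 and 159 CPM in WT lines 3, 8 and 19. The groups overlapped, and the log2 fold change was 0.15 (SE 0.12, 95% interval -0.12 to 0.42, edgeR adjusted p = 0.332). Of the exon bases of Cyfip1, 11.02% also belong to Nipa2 on the other strand, and with the strand setting unknown some of these counts may be shared.

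Because Cyfip2 is abundant in neurons, neuron markers are given beside it. Of 9 tested, 4 passed the edgeR test, all higher in the libraries labelled KO, where 42.3% of all tested genes were called and 21.8% were called higher. The 10 listed genes summed to 1164 to 1757 CPM in the libraries labelled KO, against 877 to 1098 CPM in WT. Most of this sum was Map2 (listed as Mtap2), averaging 1289 CPM in the libraries labelled KO, against 907 CPM in WT. The largest changes were at low levels. Dcx, a microtubule protein gene of young neurons, was at 18.3, 8.92 and 6.74 CPM in KO lines 3, 13 and 16, against 0.988, 0.659 and 0.271 CPM in WT lines 3, 8 and 19 (log2 fold change 4.06, edgeR adjusted p = 3.19e-04). Snap25, a synaptic vesicle fusion gene, was at 9.83, 5.54 and 4.51 CPM in KO lines 3, 13 and 16, against 1.61, 0.861 and 0.651 CPM in WT lines 3, 8 and 19 (log2 fold change 2.604, edgeR adjusted p = 0.00104). Neither overlapped between genotypes. Elavl3 also rose, by 0.54 on the log2 scale, but overlapped, with KO line 3 at 19.7 CPM and WT line 3 at 20.2 CPM. Elavl4 did not pass, at -0.43, nor did Tubb3, Rbfox3, Syt1 and Syp, at 0.31, 0.19, 0.63 and 0.20. Stmn2 was at 0 to 0.172 CPM and Rbfox3 at 5.75 to 8.50 CPM in the libraries labelled KO, against 0 to 0.101 and 4.56 to 7.10 CPM in WT. The part of neuronal cells in the Cyfip2 difference was not tested.

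Nufip2 was the most variable of the called members, and Nufip1 was steady. Nufip2 (ENSMUSG00000037857.16, chromosome 11, 77686155 to 77741921) was at 448, 228 and 179 CPM in the libraries labelled KO lines 3, 13 and 16, against 463, 544 and 495 CPM in WT lines 3, 8 and 19. The libraries labelled KO were all below WT, but KO line 3 only just, by a log2 difference from the WT mean of -0.16, against -1.14 and -1.49 for KO lines 13 and 16. Nufip2 fell, its log2 fold change being -0.82 (SE 0.29, edgeR adjusted p = 0.0495), at the edge of the threshold. The call was lost without WT line 3, WT line 8, WT line 19, KO line 13 or KO line 16 (edgeR adjusted p = 0.067 to 0.154; 30.4%, 31.5%, 33.5%, 31.2% and 37.1% of all tested genes were called in these fits), while leaving out KO line 3 gave a log2 fold change of -1.30 (edgeR adjusted p = 2.67e-06). Within the Xist-high lines it was at 448 CPM in KO line 3, against 463 and 544 CPM in WT lines 3 and 8. Within the Xist-low lines it was at 228 and 179 CPM in KO lines 13 and 16, against 495 CPM in WT line 19.

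Nufip1 (ENSMUSG00000022009.1, chromosome 14, 76110891 to 76137379) was at 33.8, 31.4 and 31.2 CPM in the libraries labelled KO lines 3, 13 and 16, against 29.3, 28.3 and 27.8 CPM in WT lines 3, 8 and 19. The groups did not overlap, yet the log2 difference was small, 0.18 (SE 0.10, 95% interval -0.05 to 0.40), and did not pass (edgeR adjusted p = 0.193).

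In all, 2 of the 7 genes passed the edgeR test, 1 higher (Cyfip2) and 1 lower (Nufip2) in the libraries labelled KO. Over the 13925 genes tested 42.3% were called, 21.8% higher and 20.4% lower, so 2 of 7 is not above the background. Without the filter on low counts 1 of the 7 was called, where 31.5% of all genes were, and without KO line 3 and WT line 19 together 4 were, where 54.2% of all genes were. The values of libraries labelled KO and WT did not overlap for 3 of the 7 (Cyfip2, Nufip1 and Nufip2), where 54.3% of all tested genes did not overlap. What set Fmr1 and Nufip2 apart from the other 5 was the spread among the lines labelled KO, with a coefficient of variation of 49.3% and 50.3%, against 4.53% to 11.4% for the others. In WT the 7 genes ran from 2.82% to 10.99%. Among 10952 tested genes with a mean of at least 5 CPM the median was 12.2% in the libraries labelled KO and 7.76% in WT, and 1.497% of these genes varied at least as much as Fmr1 among the lines labelled KO.

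Ratios between family members within a library do not depend on how libraries are scaled. They do not remove the trends with base composition described below when the genes differ in GC content. Compared were 4 ratios with a two-sided exact permutation test, for which 3 lines against 3 cannot give a p below 0.1. Cyfip2 counts were 0.243, 0.210 and 0.214 of the Cyfip1 counts in KO lines 3, 13 and 16, against 0.132, 0.1300 and 0.125 in WT lines 3, 8 and 19. The log2 ratio was higher by 0.78 in the libraries labelled KO, without overlap, at the smallest p the exact test allows (p = 0.1, adjusted p = 0.2 over the 4 ratios). Nufip2 counts were 13.2, 7.25 and 5.73 times those of Nufip1 in KO lines 3, 13 and 16, against 15.8, 19.3 and 17.8 times in WT lines 3, 8 and 19. That log2 ratio differed by -1.10, again without overlap (exact permutation p = 0.1, adjusted p = 0.2).

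The ratios of Fxr1 and Fxr2 to Fmr1 overlapped between genotypes. The log2 ratio of Fxr2 to Fmr1 was -1.23, -0.07 and 0.32 in KO lines 3, 13 and 16, against -0.48, -0.73 and -0.65 in WT lines 3, 8 and 19. KO line 16 was the single library with more Fxr2 than Fmr1 counts. With the GC and length trends described below removed, it had 171 adjusted CPM of Fxr2 and 206 of Fmr1. The genotype means differed by 0.29 (exact permutation p = 0.6). For Fxr1 over Fmr1 the log2 ratio was -1.08, -0.27 and -0.13 in KO lines 3, 13 and 16, against -0.33, -0.59 and -0.75 in WT lines 3, 8 and 19, and the means differed by 0.07 (exact permutation p = 0.9). With KO line 13, KO line 16 or WT line 19 left out the sign of this last difference turned, and with KO line 16 left out so did that of Fxr2 over Fmr1. No stretch of 50 bases was shared between the longest transcripts of Fmr1, Fxr1 and Fxr2, of Cyfip1 and Cyfip2, or of Nufip1 and Nufip2. These were 0 of 2965 to 6391 stretches of the first gene of each pair. Exact matches of that length in these transcripts would thus tell the family members apart. Inexact matches, other transcripts and the length of the reads were not looked at.

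**Figure D2:**
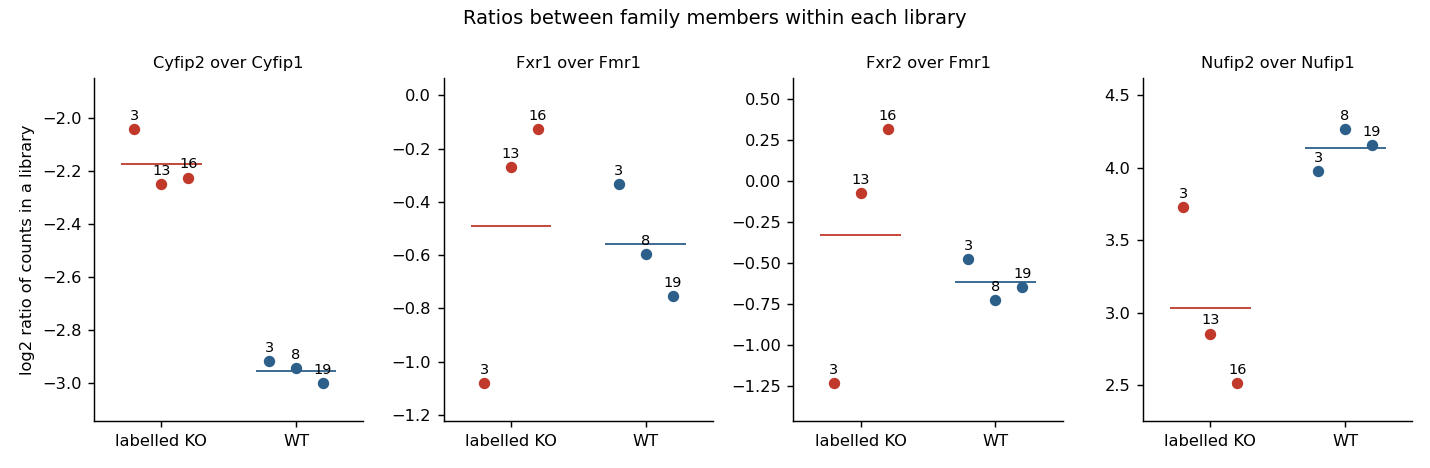
Log2 ratio of the counts of 2 family members within each library, with line numbers and a line at the mean of 3; each panel has its own scale. The Cyfip2 to Cyfip1 ratio (-2.04 to -2.25 in the libraries labelled KO and -2.92 to -3 in WT) and the Nufip2 to Nufip1 ratio do not overlap, while both ratios to Fmr1 do, with KO line 3 lowest of all libraries.

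Across all tested genes, the difference between KO line 3 and the other lines labelled KO moved with base composition. Over the longest transcripts the GC content was 39.2% for Fmr1, 39.2% for Nufip2 and 39.4% for Fxr1, then 44.6% for Nufip1, 46.1% for Cyfip1, 51.8% for Cyfip2 and 58.5% for Fxr2. In log2 CPM, KO line 3 exceeded the mean of KO lines 13 and 16 by 1.13 for Fmr1, 1.15 for Nufip2 and 0.25 for Fxr1, and it was below that mean by a difference of -0.23 for Fxr2. Across all tested genes the same difference had a median of 0.48 in the 2755 genes with the lowest GC content and -0.25 in the 2754 with the highest. Fmr1 and Nufip2 lay above that median, though 7.37% and 6.82% of the same 2755 genes had a larger difference, while Fxr1 lay below it. The difference was 0.11 for Nufip1 and -0.11 for Cyfip1, where genes of similar GC content had a median of 0.17. For Cyfip2 it was 0.09, where genes of similar GC content had a median of -0.16.

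KO lines 13 and 16 differed from WT along the same gradient. In the 2755 genes of lowest GC content the mean of KO lines 13 and 16 minus that of WT had a median of -0.38, beside -0.58 for Fmr1, -1.31 for Nufip2 and -0.22 for Fxr1. KO line 3 minus WT had a median of 0.12 there, beside 0.55 for Fmr1, -0.16 for Nufip2 and 0.02 for Fxr1. The trend of each library with GC content and transcript length was therefore removed, an alternative chosen after seeing the data, for 13773 of the 13925 genes. Fmr1 then had 312, 235 and 206 adjusted CPM in KO lines 3, 13 and 16, against 201, 231 and 252 in WT lines 3, 8 and 19. The log2 fold change turned to 0.14 (edgeR adjusted p = 0.45), and without KO line 3 it was -0.05 (edgeR adjusted p = 0.712), so the lower Fmr1 of KO lines 13 and 16 was not called on this scale.

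Nufip2 kept its direction with these trends removed, at a log2 fold change of -0.59 (edgeR adjusted p = 0.00619), and so did Cyfip2, at 0.82 (edgeR adjusted p = 3.47e-04). Fxr1 turned to 0.24 (edgeR adjusted p = 0.0629) and, without KO line 3, to 0.35 (edgeR adjusted p = 0.00145). Nufip1 passed on this scale, at 0.28 (edgeR adjusted p = 0.0238), and Fxr2 and Cyfip1 did not. With the trends removed 53.1% of all tested genes were called, and 54.8% when KO line 3 was also left out. Whether the gradient comes from the libraries or from the cells was not tested.

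**Figure D3:**
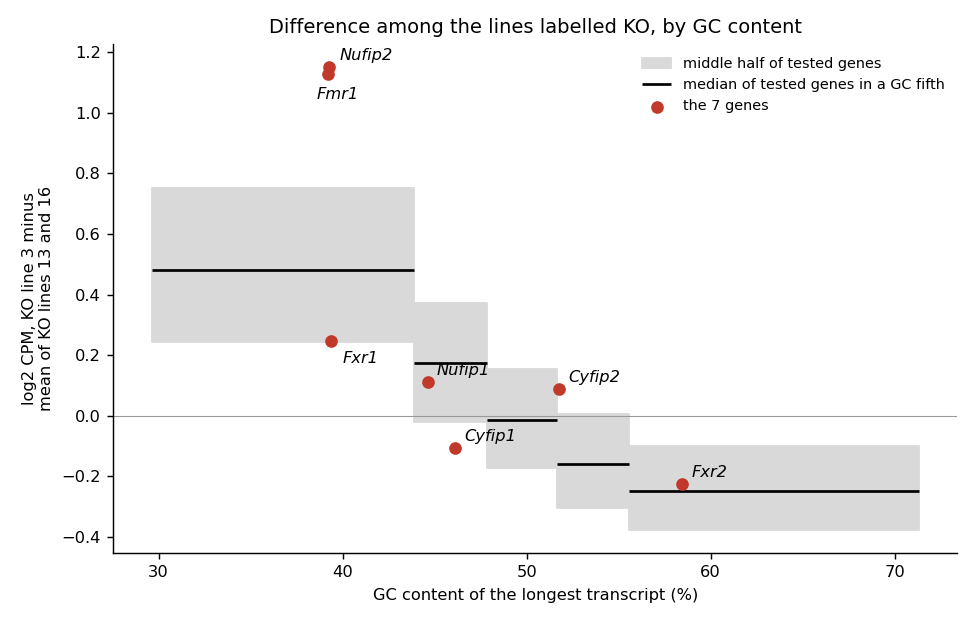
Log2 CPM of the library labelled KO line 3 minus the mean of KO lines 13 and 16, against the GC content of the longest transcript, for the 7 genes (points) and for all tested genes in 5 bins of GC content (line, median; band, interquartile range). The medians fall with GC content, 0.48 in the lowest bin and -0.25 in the highest, and Fmr1 and Nufip2 lie above the band of their bin.

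**Figure D4:**
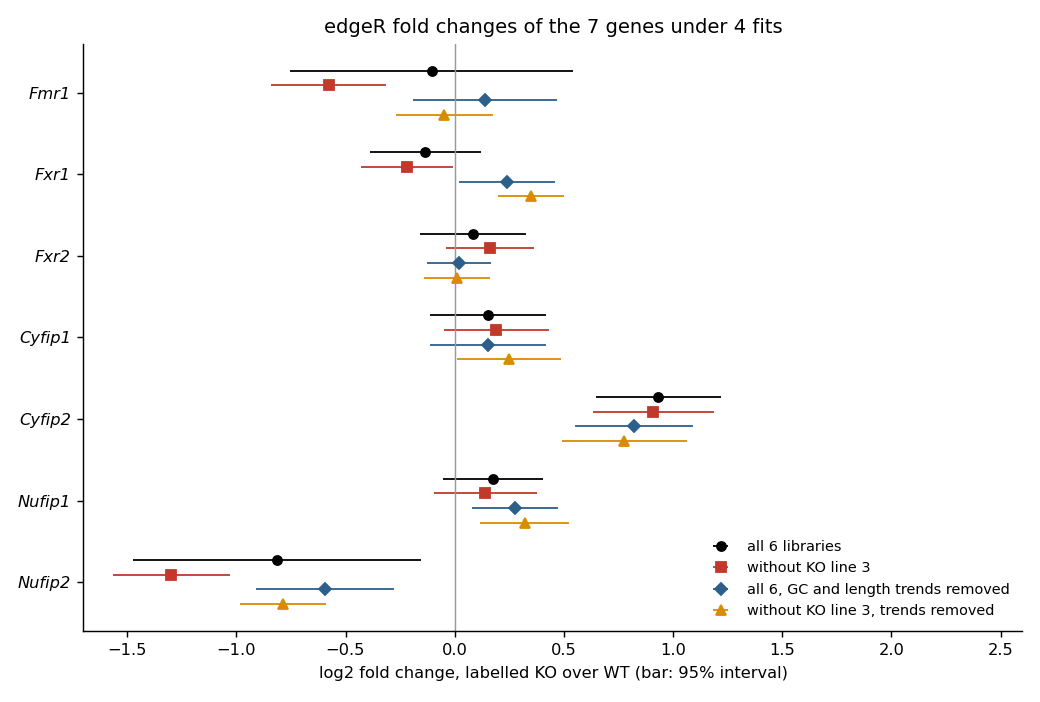
Log2 fold changes of the 7 genes, libraries labelled KO over WT, from edgeR with all 6 libraries or without KO line 3, each also with GC and length trends removed; bars are 95% intervals, not adjusted for the number of genes. Cyfip2 stays at 0.78 to 0.93 and Nufip2 stays below 0 in all 4 fits, whereas Fmr1 and Fxr1 change sign.

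For each gene the 2 tested genes with the nearest pattern over the 6 libraries were found by the root-mean-square distance of centred log2 CPM, among 10265 named genes with a mean of at least 5 CPM. Nearest to Fmr1 were Ctdspl2, which encodes a phosphatase-like protein, and Fubp1, which encodes a nucleic acid-binding protein, at distances of 0.084 and 0.094. Fubp1 was at 998, 487 and 476 CPM in KO lines 3, 13 and 16, against 683, 787 and 780.2 CPM in WT lines 3, 8 and 19, high in KO line 3 and low in the other lines labelled KO as Fmr1 was. Nearest to Nufip2 were the zinc-finger gene Zfp442 and Tmtc3, an endoplasmic reticulum glycosyltransferase gene, at 0.037 and 0.049. Nearest to Cyfip2 were Idh1, the cytosolic isocitrate dehydrogenase, and the imprinted gene Peg12, at 0.046 and 0.047. Fxr1 was nearest to Rbbp9 and Sgcb (0.031 and 0.037), Fxr2 to Ap1b1 and D2Wsu81e (0.023 and 0.024), Cyfip1 to Ctr9 and Eprs (0.032 and 0.033) and Nufip1 to Ube2d1 and Xrn2 (0.026 and 0.030). These distances describe 6 libraries that share depth and base composition effects.

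The genes that lie next to the members were read for changes of the whole locus. Of the 28 nearest RefSeq genes (2 on each side of each member) 12 had a row and 7 were tested, and 1 of these passed, where 42.3% of all tested genes did. That gene, Fndc9 (listed as C030019I05Rik), lies on the opposite strand inside Cyfip2, with no shared exon base. It was at 7.59, 8.04 and 7.21 CPM in KO lines 3, 13 and 16, against 2.52, 1.62 and 2.33 CPM in WT lines 3, 8 and 19 (log2 fold change 1.81, SE 0.20, edgeR adjusted p = 2.01e-04). Because nuclear RNA holds introns and the strand setting is not given, reads of the Cyfip2 intron and of Fndc9 cannot be told apart here. Beside Fmr1, its antisense neighbour Fmr1os (listed as Gm10474) was at 1.55, 0.888 and 0.644 CPM in KO lines 3, 13 and 16, against 0.988, 1.22 and 0.922 CPM in WT lines 3, 8 and 19, and did not pass (edgeR adjusted p = 0.93). Tubgcp5 and Nipa2, which flank Cyfip1, did not pass (edgeR adjusted p = 0.711 and 0.278).

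CYFIP1 and CYFIP2 work inside the WAVE complex, and 2 of its 7 other tested genes rose while 0 fell, with a median log2 fold change of 0.27, beside 0.01 over all tested genes. That is 28.6% called, below the 42.3% of all tested genes. Both that rose encode WAVE proteins, the subunits that activate ARP2/3. Wasf1 was at 71.8, 59.3 and 67.6 CPM in KO lines 3, 13 and 16, against 33.2, 32.1 and 30.7 CPM in WT lines 3, 8 and 19 (log2 fold change 1.05, SE 0.11, edgeR adjusted p = 1.65e-04). Wasf2 was at 118, 135 and 147 CPM in KO lines 3, 13 and 16, against 72.1, 74.5 and 78.6 CPM in WT lines 3, 8 and 19 (log2 fold change 0.83, SE 0.11, edgeR adjusted p = 5.88e-04). Neither overlapped between genotypes. The scaffold Nckap1 and the subunits Abi1, Abi2, Wasf3 and Brk1 (listed as 6720456B07Rik) did not pass, with log2 fold changes of -0.10, -0.34, 0.47, 0.27 and 0.05. Nckap1l and Abi3, the blood-cell forms, had too few counts to test.

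Downstream of the complex, 2 of 11 tested RAC and ARP2/3 genes rose and 1 fell (median log2 fold change 0.02), or 27.3% called, below the 42.3% of all tested genes. The ARP2/3 subunits Arpc5 and Arpc1a had log2 fold changes of 0.41 (edgeR adjusted p = 0.0174) and 0.31 (edgeR adjusted p = 0.0444), and the GTPase gene Rac3 had -0.55 (edgeR adjusted p = 0.016). Without WT line 19 none of these 3 calls held, where 33.5% of all tested genes were called. Without WT line 3 or WT line 8 only 1 gene of this list was called, where 30.4% and 31.5% of all tested genes were.

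Around eIF4E, the cap-binding partner of CYFIP1, 6 of 12 tested genes rose and 2 fell, a median log2 fold change of 0.29. Over all tested genes 21.8% were called higher and 20.4% lower. Eif4e itself fell, at 142, 97.4 and 105 CPM in KO lines 3, 13 and 16, against 174, 157 and 169 CPM in WT lines 3, 8 and 19 (log2 fold change -0.54, SE 0.15, edgeR adjusted p = 0.0172), a call lost without KO line 13 (edgeR adjusted p = 0.072). The related Eif4e3 fell by 1.82 on the log2 scale, averaging 0.71 CPM in the libraries labelled KO, against 2.49 CPM in WT. The repressor Eif4ebp2, which competes for eIF4E, rose by 0.71 on the log2 scale (SE 0.12, edgeR adjusted p = 0.0018), and the scaffold Eif4g3 with 0.59 (SE 0.11, edgeR adjusted p = 0.00255). Eif4ebp3, Eif4g1, Eif4a1 and Eif4enif1 rose with log2 fold changes of 0.43, 0.42, 0.40 and 0.29. Of the Eif4ebp3 exon bases, 67.3% also belong to AC115631.1 on the same strand, so its counts are uncertain. There were 3 calls instead of 8 without KO line 13, 4 without WT line 3 and 5 without WT line 8, where 31.2%, 30.4% and 31.5% of all tested genes were called.

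Of 20 other genes for FMRP protein partners, 5 rose and 0 fell (median log2 fold change 0.17), a called share below the 42.3% of all tested genes. Among them was the Argonaute gene Ago1 (listed as Eif2c1), at 279, 312 and 295 CPM in KO lines 3, 13 and 16, against 170.2, 168 and 195 CPM in WT lines 3, 8 and 19 (log2 fold change 0.73, SE 0.11, edgeR adjusted p = 8.65e-04). Ncl, Pabpc1, Upf1 and Dicer1, which encode nucleolin, poly(A)-binding protein, an RNA helicase of nonsense-mediated decay and the microRNA-producing nuclease, rose with log2 fold changes of 0.51, 0.42, 0.41 and 0.38. The stress granule partners Caprin1, G3bp1 and G3bp2 did not pass, with 0.02, 0.21 and -0.03. This count was 1 without WT line 3, 3 without KO line 13 or WT line 8, and 9 without KO line 3, where 30.4%, 31.2%, 31.5% and 53.7% of all tested genes were called.

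Among the box C/D assembly genes, the setting in which NUFIP1 acts, 4 of 10 rose and 0 fell (median log2 fold change 0.27), a called share near the 42.3% of all tested genes. The core proteins of the finished particle, Nop56, Fbl and Nop58, had log2 fold changes of 0.66, 0.43 and 0.31, and the assembly factor Rpap3 had 0.38, whereas Znhit3 and Znhit6, which act with NUFIP1, did not pass, at -0.03 and -0.08. Without KO line 13, WT line 3 or WT line 19 only 1 of the 10 was called, where 31.2%, 30.4% and 33.5% of all tested genes were, and without KO line 16 or WT line 8 there were 2, where 37.1% and 31.5% were. Over the 5 lists 22 of 60 tested genes were called, a share not above the 42.3% of all tested genes. The calls of Wasf1, Wasf2, Eif4e3, Eif4ebp2, Eif4g3, Ago1 and Nop56 held whichever single library was left out and with GC and length trends removed, and the other 15 were lost when at least 1 library was left out.

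**Figure D5:**
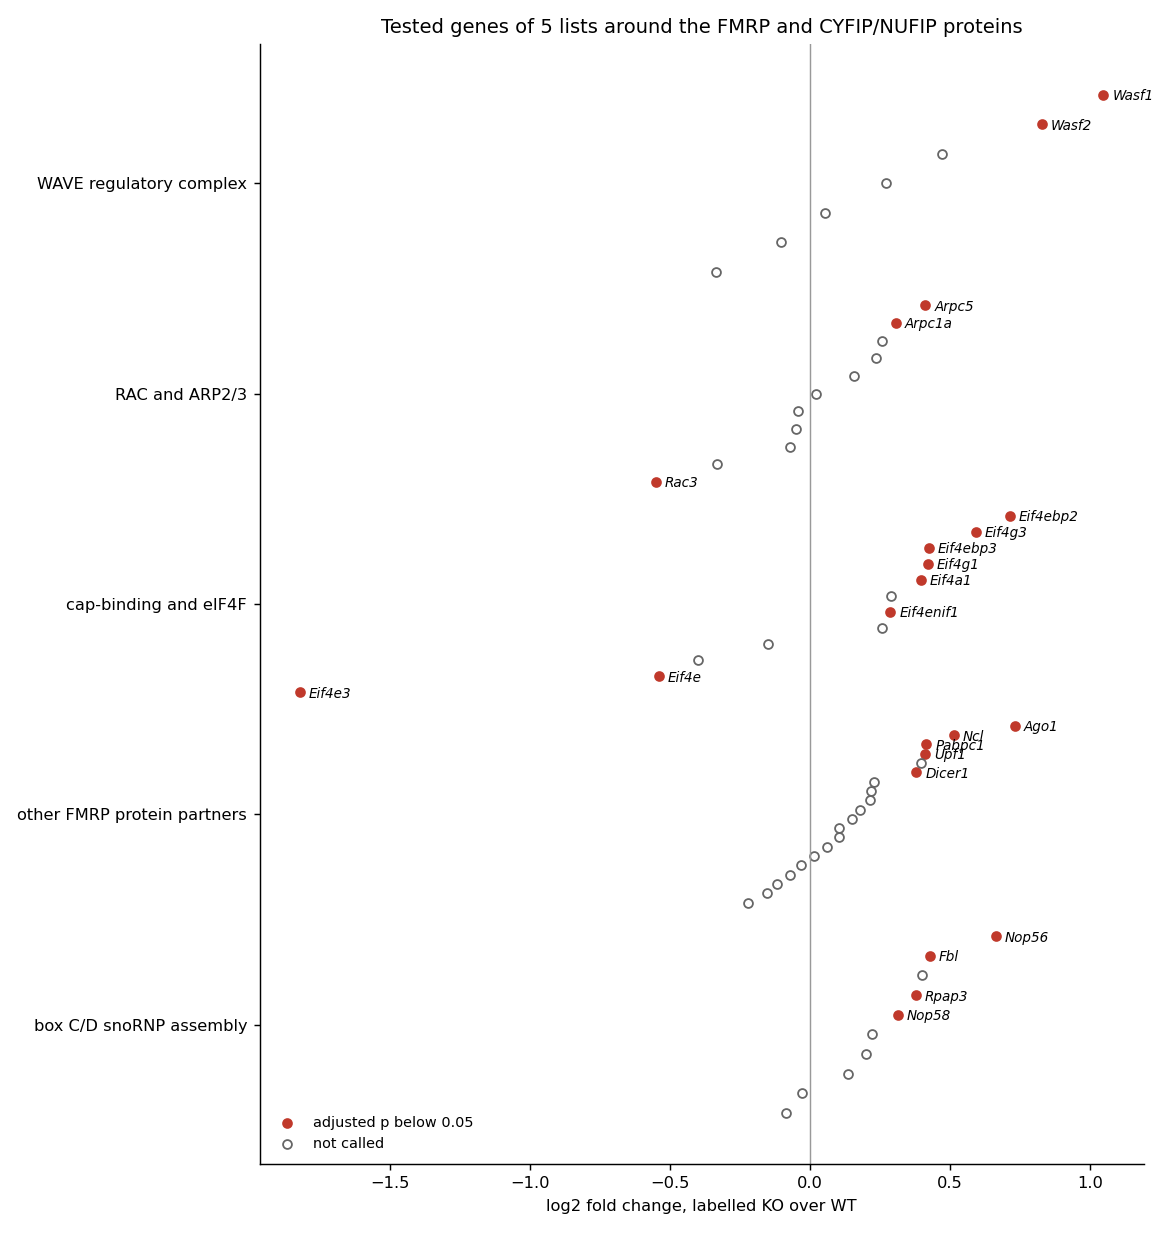
Log2 fold changes, libraries labelled KO over WT, of the tested genes in 5 lists around these proteins, each list sorted by value; filled points passed edgeR's test at an adjusted p below 0.05 and carry their symbols. Wasf1 (1.05) is the highest and Eif4e3 (-1.82) the lowest.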

How the data were processed

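The files the authors deposited hold unnormalized counts for each gene symbol, in 1 column per library. STAR, DESeq2, HTSeq 0.7.2 and cutadapt 1.14 are the tools named by the submitters' processing notes, with mm10 as build. Annotation, strand setting and the tools' parameters: not given in the sources used here. Intervals and SEs come from the quasi-likelihood fit, which pools information on the spread between lines over genes. Counting error is part of that spread and was not measured apart. Counts were tested in edgeR 4.0.16 (R 4.3.3) with filterByExpr, TMM scaling and a robust quasi-likelihood fit over the 6 libraries, with 4 residual degrees of freedom. P-values were adjusted over the 13925 tested genes by Benjamini-Hochberg, with a threshold of 0.05, and SEs were derived from the F statistic. The working of the test was checked on simulated counts. These held no trend with base composition and no outlying line, so they do not vouch for the calls here. GENCODE M21 and RefSeq GRCm38.p6 gave positions, lengths and names. Pattern distances used log2 CPM with a prior count of 2.

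Genes named were the 7 members, called genes of the lists and otherwise up to 4 per list by smallest p. The 2 nearest patterns per member, Xist and Rn45s were named too. A few others stand beside them to complete a family or a list. The members and lists were chosen with earlier results of these data known. Alternatives were other scalings, filters and tests (limma 3.58.1, DESeq2 1.42.0), an Xist covariate, left-out libraries and, after seeing the data, removal of GC and length trends.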

Additional observations from a re-analysis of the deposited data

How the results depend on the processing

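No paired analysis was possible because the labels give no pairing of lines across genotypes. The number 3, used in both, is not said to mark a shared origin. The Cyfip2 call held under all 18 alternatives (log2 fold change 0.78 to 1.03). With each library left out in turn, log2 fold changes ran from -0.58 to 0.14 for Fmr1 (0.04 without KO line 13 and 0.14 without KO line 16) and from -1.30 to -0.56 for Nufip2. Nufip2 also lost its call without the filter on low counts (-0.81, adjusted p = 0.114). Members called were 1 to 3 (2 in the main test), and members called lower 0 to 2, with a library left out. In these fits 30.4% to 53.7% of all tested genes were called. Members called and called lower were 1 and 0 without the filter, where 31.5% of all genes were called. They were 4 and 3 without KO line 3 and WT line 19 together, where 54.2% were. With trends removed and KO line 3 left out 4 were called, 3 of them higher, where 54.8% of all tested genes were called. With trends removed alone 2 were higher, where 53.1% of all tested genes were called. With KO line 3 and WT line 19 both out, Fmr1 had -0.53 and Fxr1 -0.26, both called. With GC and length trends removed Fmr1 had 0.14 and Fxr1 0.24, Fxr1 0.35 without KO line 3, and Nufip1 0.28 and, without KO line 3, 0.32. The Fxr1 to Fmr1 log2 ratio difference ran from -0.12 to 0.36 (-0.044 without KO line 13 and -0.029 without WT line 19) and that of Fxr2 to Fmr1 from -0.036 to 0.74 with a library left out. With a library left out, genes called higher ran from 1994 (without WT line 3) to 3666. List counts with a library left out were 1 to 6 of 10 (box C/D assembly) and 3 to 10 of 12 (cap-binding). They were 1 to 9 of 20 for other partners and 0 to 3 of 11 for RAC and ARP2/3. In these fits 30.4% to 53.7% of all tested genes were called. With trends removed 8 other partners were called, where 53.1% of all tested genes were. With the longest transcript as length, levels were 26.4 (Cyfip1), 55.9 (Fmr1), 54.8 (Fxr1) and 58.0 (Fxr2) CPM per kilobase. In the lists the RAC and ARP2/3 median turned to -0.03 without WT line 19. Without KO line 16, 1 gene of that list was called higher and 2 lower, where 37.1% of all tested genes were called. Without KO line 3, 1 WAVE gene and 2 other partners were called lower, where 53.7% of all tested genes were called. Every other fold change and ratio of the members kept its direction and side of the threshold in the alternatives run. Each of the 7 genes had at least 366 counts in every library. What limits these tests was not compared.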

Other observations

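Some partner genes shared the split of Fmr1 among the lines labelled KO, and they were picked after their values were seen. Purb, a single-stranded nucleic acid-binding protein gene, was at 373, 192 and 199 CPM in KO lines 3, 13 and 16, against 278, 326 and 286 CPM in WT lines 3, 8 and 19. Syncrip, which encodes an RNA-binding protein of transport granules, was at 388, 212 and 219 CPM in KO lines 3, 13 and 16, against 289, 339 and 282 CPM in WT lines 3, 8 and 19. In both the library labelled KO line 3 was the highest and KO lines 13 and 16 the lowest, and neither passed the edgeR test (adjusted p = 0.482 and 0.611). The same order was seen outside the partner list. Abi1 was at 104, 64.8 and 64.4 CPM in KO lines 3, 13 and 16, against 100.3, 98.9 and 95.2 CPM in WT lines 3, 8 and 19. Nckap1 had this order too. How many of all tested genes had it was not counted.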
